A study of Mus musculus with 3 samples.

Results

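The heat shock chaperone genes Hspa1a, Hspa1b, Dnajb1, Dnaja4, Hspb1, Hsp90aa1, Hsph1 and Hspa8 were examined in single nuclei of mouse interscapular brown adipose tissue (BAT). These 8 genes, of 25154 listed in any of the 3 libraries, were chosen by values seen earlier in these same libraries, where several of them led a group of brown adipocyte nuclei, so their levels in brown adipocyte-like nuclei, their concentration in some of these nuclei and their co-detection there are a description that the choice of genes builds in. All 8 genes were listed in every library. The study asked how endothelial cells (ECs) and brown adipocytes (BAs) communicate in BAT, and compared BAT with and without its sympathetic nerve supply. One library of nuclear RNA was made per condition on the BD Rhapsody microwell platform, which tags each transcript with a unique molecular identifier (UMI). The untreated library came from adult wild-type C57Bl6 mice with no intervention. The sham library came from mice of the same strain, stage and genotype after a sham operation, and the denervated library came from such mice after denervation of BAT. According to the study's methods the mice were male, the denervation was done on one side, BAT was taken some days after surgery, and tissue of several mice was pooled. A legend in the study's supplement also lists tamoxifen for the denervated data set, which the labels do not name, and the number of sham mice was not given in the sources used here. All 3 preparations used the floating layer of enzymatically digested BAT, which holds adipocytes and fragments of vessels, followed by nuclear isolation and sorting. With 1 library per condition, no comparison has a replicate error, the condition cannot be told apart from the library, and no test between conditions was made.

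Heat shock chaperones bind unfolded proteins and help them refold. Hsp70 proteins (Hspa1a, Hspa1b, Hspa8) are ATP-dependent, J-domain proteins (Dnajb1, Dnaja4) hand them substrates and stimulate their ATPase, and Hsp110 proteins (Hsph1) exchange their nucleotide. Hsp90 (Hsp90aa1) completes the folding of kinases and receptors, and the small heat shock protein Hspb1 holds unfolded proteins until Hsp70 takes over. Heat shock factor 1 induces most of these genes within minutes of heat or other protein-damaging stress, whereas Hspa8 is expressed in unstressed cells as well. Nuclei record newly made transcripts, and the digestion step of tissue dissociation is itself known to induce such genes.

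Hspa1a (ENSMUSG00000091971.3) and Hspa1b (ENSMUSG00000090877.3) encode the stress-inducible Hsp70 and are neighbours of 1 exon each on chromosome 17 of GRCm38, at chr17:34969190-34972156 and chr17:34956436-34959238, both on the minus strand, with 9951 bases between them. Their transcripts shared 52.7% and 55.8% of their stretches of 75 bases, but none in the last 500 bases, so reads from the 3′ end tell them apart and reads from elsewhere may not. They are therefore also given as a sum. Hspb1 lies on chromosome 5, at chr5:135887919-135889563 on the plus strand. The 250 bases before the RefSeq start of these 3 genes (GRCm38.p6) are shown because these windows hold paired units of the heat shock element, the site that heat shock factors bind, and overlap no annotated transcript. Capitals mark each match to GAANNTTC or TTCNNGAA, the head-to-head or tail-to-tail pair of units, which was searched on both strands.
Hspa1a, chr17:34972157-34972406, minus strand: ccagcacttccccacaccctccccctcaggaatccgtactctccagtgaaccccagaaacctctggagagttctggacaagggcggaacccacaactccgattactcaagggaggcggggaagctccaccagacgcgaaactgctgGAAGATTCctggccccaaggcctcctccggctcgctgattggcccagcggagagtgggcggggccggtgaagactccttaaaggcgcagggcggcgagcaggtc
Hspa1b, chr17:34959239-34959488, minus strand: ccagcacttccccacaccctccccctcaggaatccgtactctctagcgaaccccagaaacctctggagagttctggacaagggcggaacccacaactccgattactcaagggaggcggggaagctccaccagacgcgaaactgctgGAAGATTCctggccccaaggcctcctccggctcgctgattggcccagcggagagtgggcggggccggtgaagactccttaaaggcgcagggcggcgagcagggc
Hspb1, chr5:135887669-135887918, plus strand: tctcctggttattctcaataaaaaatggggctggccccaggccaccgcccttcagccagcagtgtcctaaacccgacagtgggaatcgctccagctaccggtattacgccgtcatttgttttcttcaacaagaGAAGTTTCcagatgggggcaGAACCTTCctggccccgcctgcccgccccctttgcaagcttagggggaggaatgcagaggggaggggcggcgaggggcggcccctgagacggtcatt
The Hspa1a and Hspa1b stretches were identical at 98.8% of the 250 positions. They differed at 3, which are C44T, T47C and T249G, counted from 1 at the 5′ end with the Hspa1a base first. In both, the match GAAGATTC began 104 bases before the start. Hspb1 held 2 matches, at 117 and 97 bases before the start. Of the 8 genes, 6 had a promoter in the RefSeq table and 5 of these held a match, as did 14.5% of the 27025 genes in the table. The matches of Hsph1 (TTCTCGAA) and Dnaja4 (GAACGTTC and GAACCTTC) lie in windows that overlap annotated transcripts and are not printed. Neither Dnajb1 window held one, and Hsp90aa1 and Hspa8 were not in the table. A run of 3 alternating units, found in 0.466% of all 32851 promoters, was in none of the members' windows. A match of letters is a description of the window and says nothing of binding.

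Per library, the deposited tables held 13707 barcodes and 14971579 UMIs (untreated), 15368 and 14725864 (sham), and 15822 and 9420030 (denervated). After filtering, 10957, 12288 and 9708 nuclei remained, with medians of 971, 749 and 685 UMIs. The mitochondrial share of UMIs in these nuclei was 5.02%, 8.48% and 2.39%, so the libraries differed in that measure. From 251 to 278 barcodes were shared by each pair of libraries and 5 by all 3. Nuclei were classed by marker genes with the 8 members and other chaperone genes held out of the clustering. Brown adipocyte-like nuclei numbered 4604, 3447 and 4962, endothelial-like nuclei 5421, 5849 and 1284, pericyte-like nuclei 670, 1416 and 816, and white adipocyte-like nuclei 136, 899 and 846. The white adipocyte-like class had Slc7a10 at 552, 563 and 758 CPM, that is UMIs scaled to a total of 1000000 per class, against at most 253 in any brown adipocyte-like sub-cluster, and Ucp1 at 70.9, 112 and 76.7 CPM. Ptx3 and Cxcl1, which are inflammatory genes, and Slc7a10 were among the leading genes of the denervated cluster that holds that class. Atf3, a stress-induced gene, was among those of the untreated and sham clusters. These clusters also held brown adipocyte-like nuclei. Atf3 was at 86.0 and 330 CPM in the white adipocyte-like class of the untreated and sham libraries. In 1 brown adipocyte-like sub-cluster of each it was at 704 and 375 CPM. Barcodes with fewer than 200 detected genes, which can hold free RNA or shallow nuclei and were not told apart here, had the 8 genes at 4418, 3631 and 7132 CPM in the 3 libraries. These genes are used in all cell types, so no nucleus class can serve as a negative control for them, and a low level or share cannot be told apart from free RNA. With the low barcodes taken as a profile of free RNA, its estimated share was 41.7%, 92.0% and 72.5% of EC UMIs and 6.19%, 7.68% and 2.46% of BA UMIs. In the untreated and denervated libraries the 8 genes had more CPM in the low barcodes than in ECs, and in the sham library they had fewer. In the untreated library the log2 ratio of the sum in BAs over ECs was -0.53 as measured and -0.51 with this RNA subtracted. No subtracted value was taken for sham and denervated ECs, where its part in the levels was not tested.

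With nuclei of all depths pooled, white adipocyte-like nuclei held the most chaperone transcripts in all 3 libraries, and among the large classes BAs held fewer than ECs. Among nuclei of like depth, however, the order of BAs and ECs differed with the library and the depth. In BAs the 8 genes summed to 2881 CPM (95% exact Poisson interval 2845 to 2918) in the untreated library, 4701 (4640 to 4763) in the sham library and 3377 (3326 to 3428) in the denervated library. These intervals, like all others here, cover counting error only. In ECs the sums were 4158, 7710 and 6060 CPM. In pericyte-like nuclei (PCs) they were 2832, 3270 and 4302 CPM, and in white adipocyte-like nuclei (WAs) 8998, 22640 and 12795 CPM. With all depths pooled, the order WA, EC, then BA held in each library, while PCs lay just below BAs in the untreated library, lowest in the sham library and above BAs in the denervated library. In the untreated library the BA and PC intervals overlapped (PC 2697 to 2972). The sham library also held 420 smooth muscle-like nuclei at 6168 CPM, and a group of 1413 denervated nuclei with endothelial and adipocyte markers together, left unnamed, had 4914 CPM. Within the untreated EC class, 409 nuclei led by the immediate early genes Fos and Egr1 had 11514 CPM and the other 5012 had 3572 CPM.

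**Figure D1:**
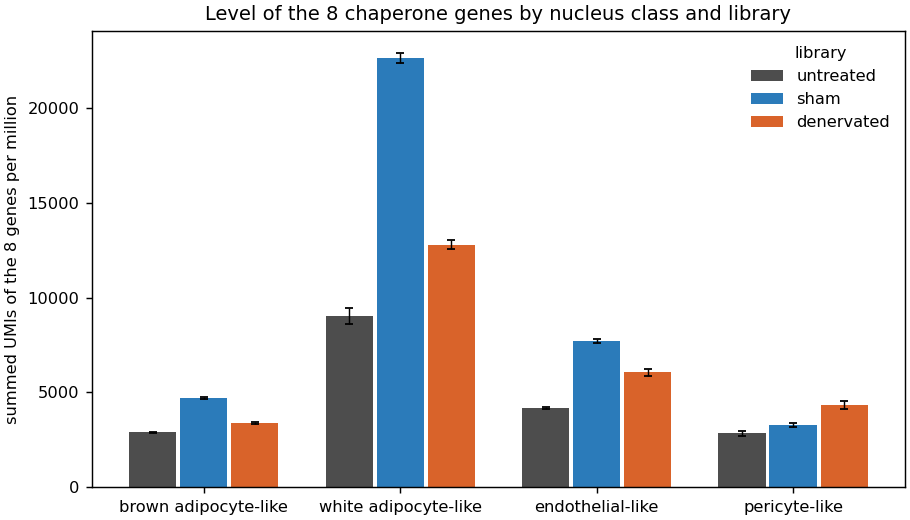
Summed level of the 8 chaperone genes in CPM (vertical axis, linear from 0) in 4 nucleus classes and 3 libraries, with 95% Poisson intervals. The WA bars, 8998 to 22640, stand above those of every other class, and the sham bar is the tallest in all classes but PCs.

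With all depths pooled, the Hsp70 genes were lower in BAs than in ECs, by an amount that differed between libraries. Hspa1a stood at 446, 524 and 530.2 CPM in untreated, sham and denervated BAs and at 533, 1453 and 943 CPM in the ECs of the same libraries. Hspa1b stood at 473, 716 and 522 CPM in BAs and at 659, 1939 and 1151 CPM in ECs. The log2 ratio of BAs over ECs was therefore -0.26, -1.47 and -0.83 for Hspa1a, and -0.48, -1.44 and -1.14 for Hspa1b. Hspa8, the constitutive member, was at 524, 418 and 474 CPM in BAs and at 717, 660.3 and 770.3 CPM in ECs, a log2 ratio of -0.45, -0.66 and -0.70. It was the only member that was lower in the sham than in the untreated library in both classes.

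The J-domain genes went opposite ways. Dnajb1, the main partner of inducible Hsp70, was at 186, 582 and 135 CPM in BAs and at 113, 178 and 121 CPM in ECs. The log2 ratio of BAs over ECs was 0.72 and 1.71 in the untreated and sham libraries, and 0.16 (-0.17 to 0.50) in the denervated library, where the interval includes 0. Dnaja4, a type I J-domain protein, was the member with the fewest UMIs, at 49.2, 93.2 and 57.4 CPM in BAs and 94.5, 155 and 96.8 CPM in ECs. Hsph1 was higher in BAs than in ECs in each library, at 307, 342 and 283 CPM against 192, 237 and 215 CPM. Dnajb1 and Hsph1 were the only 2 of the 8 genes with a positive log2 ratio of BAs over ECs in the 3 libraries.

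Hspb1 and Hsp90aa1 were lower in BAs in the same pooled comparison. Hspb1 was at 365, 1026 and 555 CPM in BAs and 1235, 1821 and 1431 CPM in ECs, with log2 ratios of -1.76, -0.83 and -1.37. Hsp90aa1 was at 531, 1000.3 and 820.3 CPM in BAs and 614, 1266 and 1333 CPM in ECs, with log2 ratios of -0.21, -0.34 and -0.70. Set against all genes, these differences were not unusual in size. In the untreated library 24.6% of 5470 genes were lower in BAs and 26% higher by at least 1 on the log2 scale, among genes with 50 CPM or more in either class, and the members gave 1 lower (Hspb1) and 0 higher. In the sham library the shares were 22.4% lower and 27.5% higher, with 2 members lower (Hspa1a and Hspa1b) and Dnajb1 higher. In the denervated library they were 27.5% and 26.7%, with 2 lower (Hspb1 and Hspa1b) and 0 higher. The members' median log2 ratio was -0.35, -0.70 and -0.73, beside 0.16, 0.18 and 0.08 over all genes tested.

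BAs were much deeper than ECs, so both classes were also compared within fixed ranges of UMIs per nucleus, an addition made after the values were seen. One range takes a different part of each class. The median BA had 1821, 1387 and 887 UMIs in the untreated, sham and denervated libraries, and the median EC 672, 526 and 474.5. In untreated BAs the range from 500 to below 1000 UMIs lies within the shallowest quartile (237 to 1284 UMIs). That quartile stood at 7430.5 CPM, and the others at 1783 to 3606 CPM. From 500 to below 1000 UMIs the 8 genes summed to 8250, 10752 and 5518 CPM in untreated, sham and denervated BAs and to 4237, 7947 and 5780 CPM in the ECs of the same libraries. The log2 ratio of BAs over ECs there was 0.96 (0.90 to 1.02) in the untreated and 0.44 (0.39 to 0.48) in the sham library, the reverse of the pooled direction, and -0.07 (-0.14 to 0.01) in the denervated library. From 1000 to below 2000 UMIs it was 0.14, -0.86 and -1.51, so the direction depended on both the library and the depth. At 500 to below 1000 UMIs, untreated Hspa1a stood at 1858 CPM in BAs and 556 CPM in ECs (log2 ratio 1.74) and Hspa1b at 1889 and 696 CPM (1.44). In the sham library the same genes were at -0.15 (-0.27 to -0.03) and -0.21 (-0.32 to -0.10), and in the denervated library at -0.04 (-0.21 to 0.14) and -0.19 (-0.36 to -0.01). Dnajb1 was higher in BAs in the 3 libraries in this range, at 2.22, 3.16 and 0.77, and so was Hsph1, at 1.65, 1.50 and 1.03. Hspb1 was at -0.42, 0.18 and -0.55, and Hspa8 at -0.0025, -0.02 and -0.51. The members higher by at least 1 in this range were 5, 2 and 1 of 8, beside 27.2%, 26.9% and 27.8% of all genes tested, and 0 were lower, beside 27.2%, 24% and 29.4%. In each range with at least 50 nuclei of both classes, WAs stayed above BAs, at log2 ratios of 0.58 to 2.90.

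**Figure D2:**
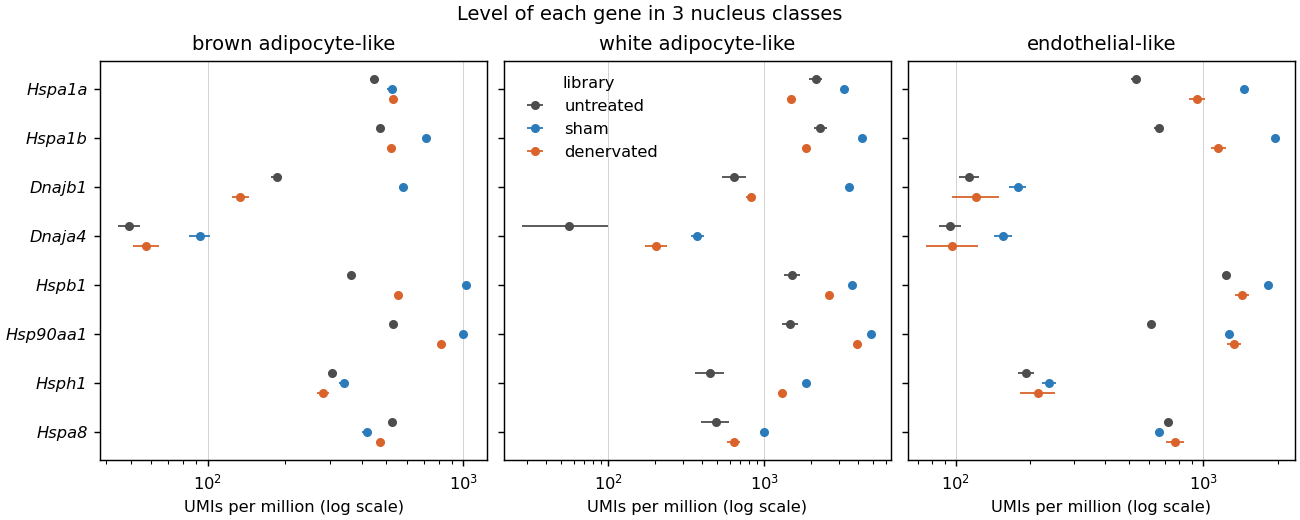
Level of each gene in CPM (horizontal log axis) in BAs, WAs and ECs, by library, with 95% Poisson intervals. Dnajb1 in sham nuclei lies far from the other libraries in BAs (582 against 186 and 135) and WAs (3487 against 638 and 820.3), but much less so in ECs (178 against 113 and 121).

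WAs exceeded BAs in nearly every member, a comparison that was added after the values were seen. In the untreated library Hspa1a stood at 2131 CPM and Hspa1b at 2282 CPM, a log2 ratio over BAs of 2.26 (2.11 to 2.40) and 2.27 (2.13 to 2.41). Hspb1 stood at 1503 CPM, Hsp90aa1 at 1458 CPM and Dnajb1 at 638 CPM, with log2 ratios of 2.04, 1.46 and 1.78. Hspa8 did not follow, at 486 CPM in WAs and 524 CPM in BAs (log2 ratio -0.11, -0.42 to 0.18), and neither did Dnaja4, at 55.7 and 49.2 CPM (0.18, -0.84 to 1.03). In the sham library all 8 genes passed a log2 ratio of 1, from 1.24 for Hspa8 to 2.62 for Hspa1a, with Hsp90aa1 at 4853 CPM, Hspa1b at 4206, Hspb1 at 3651 and Dnajb1 at 3487. In the denervated library 7 passed, with Dnajb1 at 2.61 and Hspa8 short of it at 0.42 (0.28 to 0.57). The members called were thus 5, 8 and 7 of 8, beside 12.1%, 9.52% and 13.2% of all genes tested in the 3 libraries. These counts are not free of the choice of genes, which came from a group of BAs in these same libraries. BAs at 16726, 17582 and 12978.5 CPM of the 8 genes had first clustered with the WAs in the untreated, sham and denervated libraries. The members' median log2 ratio was 1.62, 2.36 and 2.01, beside -0.09, -0.25 and -0.21 over all genes. The untreated class had only 136 nuclei. Immediate early genes, a list of 17 early-induced genes such as Fos, Jun and Egr1, moved with the chaperones and were higher in WAs by 1.72, 2.14 and 2.14 on the log2 scale. Whether those genes and the chaperones have a common origin in these nuclei was not tested.

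Between libraries, BAs of the sham library held the most chaperone transcripts, and the size of the difference varied between the genes, between clusters and with depth. Of the 3447 sham BAs, 576 had first clustered with the white adipocytes and were separated from them at the second clustering, and these stood at 17582 CPM, beside 2616 CPM in the 2871 of the main BA cluster. The corresponding untreated groups were 102 nuclei at 16726 CPM and 4192 at 2669 CPM, and in the denervated library 73 at 12978.5 CPM and 4849 at 3243 CPM, so within the main BA cluster the sham library was not the highest. In the sham library 1 sub-cluster of 693 of the 3447 BAs stood at 17509 CPM of the 8 genes, and the other sham sub-clusters of more than 100 nuclei stood at 1886 and 2246 CPM. In the untreated library 1 sub-cluster of 147 BAs stood at 18828 CPM, and the others of more than 100 nuclei ranged from 2237 to 4189 CPM. Outside these high sub-clusters the sham BAs were thus not the higher ones, apart from 64 sham BAs at 9006 CPM. The 3 comparisons share libraries with one another and are not independent. For sham over untreated BAs, the log2 ratio was 1.64 (1.55 to 1.73) for Dnajb1 and 1.49 (1.43 to 1.56) for Hspb1. It was 0.92 for Dnaja4, 0.91 for Hsp90aa1, 0.60 for Hspa1b, 0.23 for Hspa1a and 0.15 for Hsph1. Hspa8 was lower, at -0.33 (-0.40 to -0.25). Dnajb1 and Hspb1 passed a log2 ratio of 1, 2 of 8, beside 7.38% of 4835 genes tested that were higher by that much and 7.11% that were lower. The median over the members was 0.76, beside -0.01 over all genes. The sum of the 8 genes gave 0.71 (0.68 to 0.73). Among BAs of 1000 to below 2000 UMIs, Dnajb1 was at 0.88, Hspb1 at 0.89 and the sum at 0.087, so neither gene passed 1 there, beside 7.78% of all genes that were higher by that much and 7.1% that were lower. From 250 to below 500, from 500 to below 1000 and at 2000 or more UMIs, 3, 3 and 4 of 8 were higher. The shares over all genes in these ranges were 20.9%, 10.9% and 8.37% higher and 21.8%, 10.1% and 7.92% lower.

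With BAs of all depths pooled, none of the members differed between denervated and untreated BAs by a log2 ratio of 1. From 500 to below 1000 and from 1000 to below 2000 UMIs several were lower by that much, but not in the shallower and deeper ranges. The log2 ratio of denervated over untreated was 0.63 (0.57 to 0.69) for Hsp90aa1 and 0.61 (0.53 to 0.68) for Hspb1, and -0.47 (-0.60 to -0.34) for Dnajb1. It was 0.25 for Hspa1a, 0.14 for Hspa1b, -0.12 for Hsph1 and -0.15 for Hspa8, and for Dnaja4, at 0.22, the interval reached 0. Of the 8, 0 passed a log2 ratio of 1 in either direction, beside 1.17% of 4524 genes higher and 0.464% lower. The sum gave 0.23 (0.20 to 0.26), a value whose sign depended on the depth of the nuclei compared. Among BAs of 500 to below 1000 UMIs, Dnajb1 was at -1.36, Hspa1b at -1.07 and Hspa1a at -1.01, and from 1000 to below 2000 UMIs 5 of the 8 were below -1. Of all genes tested, 1.55% of 4450 were lower by that much in the former range, where 3 of 8 members were, and 0.44% of 4548 in the latter, while 2.22% and 1.03% were higher. From 250 to below 500 UMIs 1 of 8 members was higher and 0 lower, beside 13.6% and 21.1% of all genes. At 2000 or more UMIs 0 of 7 members tested passed in either direction, beside 1.38% of all genes higher and 1.25% lower. For denervated over sham BAs, Dnajb1 was the member furthest apart, at -2.11 (-2.24 to -1.99), that is 135 CPM against 582 CPM. Hspb1 followed at -0.89, Dnaja4 at -0.70 and Hspa1b at -0.46, while Hspa8 was at 0.18 and Hspa1a at 0.02 (-0.06 to 0.10). With all depths pooled, Dnajb1 alone passed, 1 of 8 lower and 0 higher, beside 7.48% of 4816 genes lower and 7.64% higher. The pooled sum gave -0.48 (-0.51 to -0.45). From 250 to below 500 UMIs 2 of 8 were lower by at least 1, and from 500 to below 1000 3 of 8 were. From 1000 to below 2000 UMIs 5 of 8 were, and at 2000 or more 6 of 8. Of all genes tested in these ranges, 22%, 10%, 7.65% and 9.61% were lower by that much. No member was higher by that much, beside 15.9%, 10.8%, 7.98% and 10.9% of all genes.

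In ECs the inducible Hsp70 genes were the members that differed most between the sham and untreated libraries. For sham over untreated, the log2 ratio was 1.56 (1.49 to 1.62) for Hspa1b, 1.45 (1.37 to 1.52) for Hspa1a and 1.04 (0.97 to 1.12) for Hsp90aa1. It was 0.72 for Dnaja4, 0.65 for Dnajb1, 0.56 for Hspb1, 0.30 for Hsph1 and -0.12 (-0.20 to -0.04) for Hspa8. These 3 of 8 genes passed 1, beside 1.87% of 4497 genes higher and 2.56% lower, and the median over members was 0.68 beside -0.08 over all genes. For denervated over untreated, Hsp90aa1 passed at 1.12 (1.01 to 1.23), 1 of 8, with Hspa1a at 0.82 and Hspa1b at 0.80, beside 4.68% of 4638 genes higher and 1.38% lower. For Dnajb1, Dnaja4, Hsph1 and Hspa8 the intervals of that comparison included 0. For denervated over sham, 0 of 8 passed in either direction, beside 13.1% of 4810 genes higher and 6.3% lower. In that comparison Hspa1b was at -0.75, Hspa1a at -0.62 and Hsp90aa1 at 0.07 (-0.03 to 0.17). Over the EC sum the log2 ratios were 0.89 for sham over untreated, 0.54 for denervated over untreated and -0.35 for denervated over sham. The immediate early genes did not move in step with the chaperones here, with log2 ratios of 0.15, 1.03 and 0.89 for the same comparisons. In PCs, Hsp90aa1 was at 724, 698 and 1584 CPM in the untreated, sham and denervated libraries, and the denervated level was above the untreated by 1.13 (0.95 to 1.31) on the log2 scale. Hspb1 in PCs was at 585, 582 and 609 CPM, with all 3 intervals overlapping.

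The summed level in CPM was highest in the shallowest quartile of nuclei in each class and library but denervated WAs. When untreated BAs were split into quartiles of UMIs per nucleus, the sum of the 8 genes was 7430.5 CPM in the shallowest quartile (237 to 1284 UMIs), then 3606, 1845 and 1783 CPM. The sham quartiles ran from 11183 to 3168 CPM and the denervated from 8351 to 1473 CPM. In ECs it ran from 5594 to 3418 CPM in the untreated, 8647 to 7189 in the sham and 8396 to 5248 in the denervated library. WAs ran from 13414 to 6970 CPM in the untreated and from 33588 to 16890 CPM in the sham library, while denervated WAs had no such order, at 11939, 13010.4, 14355 and 11927 CPM in quartiles of rising depth. In PCs the shallowest quartile stood at 4077, 3778 and 5482 CPM and the deepest at 2810, 3426 and 4566 CPM. The share of mitochondrial UMIs did not order BAs in this way, with 3256, 2669, 2571 and 3098 CPM in quartiles of rising mitochondrial share in the untreated library. In PCs the level did rise with the mitochondrial share, from 2034 to 3583 CPM in the untreated, 2632 to 4247 in the sham and 3452 to 4825 in the denervated library. In WAs it rose in the denervated library, from 11307 to 14573 CPM, and was lowest in the quartile of the highest share in the sham library, at 17834 CPM against 25620 in the lowest.

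Since the libraries differ in depth, BAs were also compared within fixed UMI ranges, an addition made after the values were seen. For denervated over untreated, the log2 ratio of the sum was 0.65 (0.49 to 0.83) from 250 to below 500 UMIs, -0.58 (-0.64 to -0.52) from 500 to below 1000, -1.13 (-1.18 to -1.08) from 1000 to below 2000 and -0.26 (-0.38 to -0.14) at 2000 or more. The pooled value of 0.23 thus did not hold in 3 of 4 ranges. From 1000 to below 2000 UMIs, Dnajb1 was at -1.83, Hspa1b at -1.65, Hspa1a at -1.62, Hsph1 at -1.17, Hsp90aa1 at -1.03, Hspb1 at -0.84, Dnaja4 at -0.83 and Hspa8 at -0.38. For denervated over sham, the sum was negative in all 4 ranges, at -0.53, -0.96, -1.22 and -1.08, and Dnajb1 was at -2.41, -2.76, -2.71 and -2.42. For sham over untreated, the sum was at 1.19, 0.38, 0.09 and 0.82, with Dnajb1 at 2.62, 1.41, 0.88 and 1.82 and Hspb1 at 1.72, 1.09, 0.89 and 1.61. Hspa1a changed sign in that comparison, at 0.62, -0.46, -0.70 and 1.13, and so did Hspa1b at 1.0, -0.11, -0.33 and 1.47. Hsph1, at 0.82, 0.26, -0.22 and 0.22, and Hspa8, at 0.31, -0.07, -0.37 and -0.67, also changed sign. One range takes a different part of each library, since the median BA had 1821, 1387 and 887 UMIs. ECs kept one direction in each range with enough nuclei, at 0.36, 0.45 and 0.52 for denervated over untreated below 2000 UMIs and 0.60, 0.91, 1.09 and 0.83 for sham over untreated. For denervated over untreated ECs the members' median log2 ratio was 0.24, 0.29 and 0.32 in these ranges, beside -0.09, 0.04 and 0.31 over all genes. From 1000 to below 2000 UMIs the members thus lay near all genes.

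**Figure D3:**
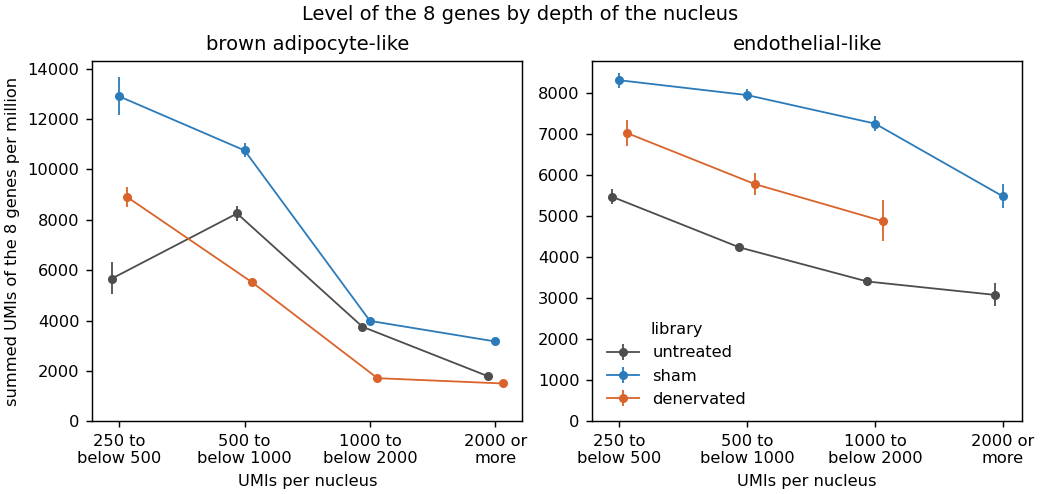
Summed level of the 8 genes in CPM (vertical axis, from 0, with a separate scale in each panel) in BAs and ECs by UMIs per nucleus, with 95% Poisson intervals and ranges of fewer than 50 nuclei left out. In BAs the denervated line is above the untreated line only from 250 to below 500 UMIs, whereas in ECs the order sham, denervated, untreated holds in every range shown for all 3 libraries.

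Chaperone transcripts were concentrated in a minority of BAs. Each nucleus was thinned at random to 500 UMIs, which left out 150, 228 and 551 BAs with fewer. At that depth 42.0%, 45.3% and 39.6% of untreated, sham and denervated BAs held no UMI of any member, and 12.3% (549 of 4454, 95% exact binomial interval 11.4 to 13.3), 20.2% (650 of 3219, 18.8 to 21.6) and 16.3% (719 of 4411, 15.2 to 17.4) held at least 3 members. Those nuclei contributed 58.7%, 79.3% and 60.9% of the members' UMIs. The 10% of BAs with the most member UMIs held 56.3%, 58.1% and 48.8% of them, beside 41.9%, 30% and 37.5% in ECs. At this depth the most members found in 1 nucleus were 8 in the sham library (11 BAs) and 7 in the untreated (15 BAs) and denervated (8 BAs) libraries. The sham library thus had the larger share both of BAs with no member and of BAs with 3 or more.

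The share of nuclei with at least 3 members was higher in WAs, at 48.1%, 82.7% and 62.7%, and in ECs, at 16.3%, 41.3% and 26.2%, than in BAs of the same library, where the thinned BAs came from deeper nuclei than the thinned ECs. In PCs it was 10.1%, 12.3% and 22.2%. Thinning left out 1755 of 5421 untreated, 2671 of 5849 sham and 716 of 1284 denervated ECs. Without thinning the BA shares were 43.7%, 33.9% and 28.3%, which follow the order of the median depths, and those of ECs were 27.7%, 45.7% and 30%. With thinning to 1000 UMIs the BA shares were 21.4%, 23.1% and 12.2%. That setting also left out 641, 894 and 2935 BAs with fewer UMIs, so the depth and the choice of nuclei cannot be told apart in the change of order. With clustering that ignored the members, 1 untreated sub-cluster of 147 BAs had 18828 CPM of the 8 genes and 1 sham sub-cluster of 693 BAs had 17509 CPM, with Atf3 at 704 and 375 CPM. The other BA sub-clusters of more than 100 nuclei ranged from 1886 to 5641 CPM in the 3 libraries, and the denervated library had no BA sub-cluster above 6310 CPM. Its 73 BAs that had first clustered with the white adipocytes stood at 12978.5 CPM.

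**Figure D4:**
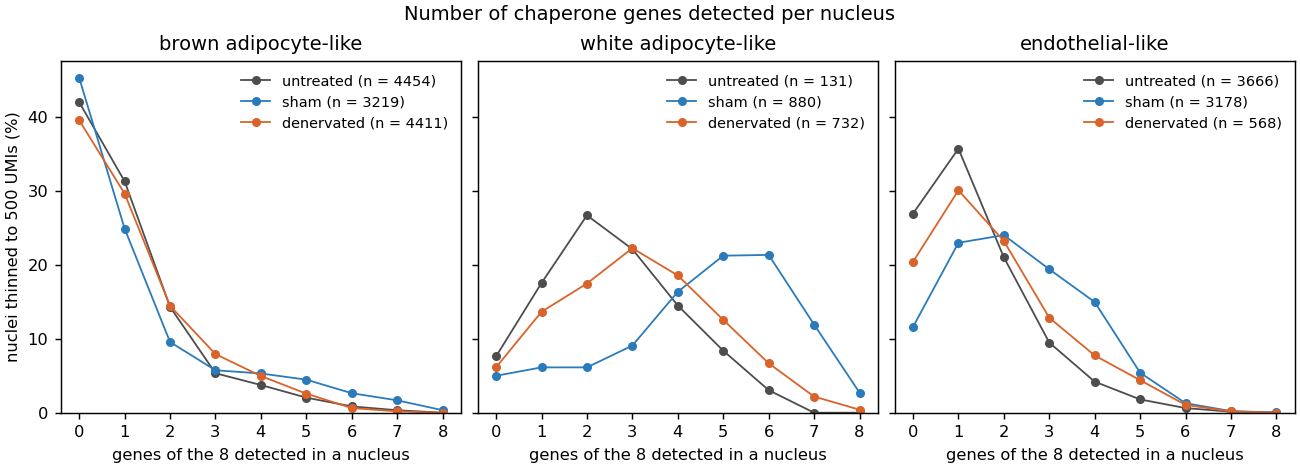
Share of nuclei thinned to 500 UMIs (vertical axis, %) by the number of the 8 genes detected in the nucleus (horizontal axis), for 3 classes and 3 libraries. BAs pile up at 0 with a tail that is longest in the sham library, while sham WAs peak at 5 to 6 genes.

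Within single BAs the inducible members were found together, a description that the choice of genes shares in. Dnajb1 was detected in 21.5% (19.01 to 24.25) of untreated BAs with a UMI of Hspa1a or Hspa1b and in 4.01% (3.38 to 4.71) of those without, a log2 ratio of 2.43. In sham BAs the shares were 45.1% and 6.51% (log2 ratio 2.79), and in denervated BAs 14.2% and 2.79% (2.34). In ECs the same ratio was 1.14, 1.03 and 0.43, from 8.45% against 3.84% in the untreated, 8.80% against 4.30% in the sham and 6.67% against 4.96% in the denervated library. The denervated EC shares had overlapping intervals, with 15 Dnajb1-positive nuclei among 225. In PCs the log2 ratio was 2.45, 1.10 and 1.85.

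Among pairs in untreated BAs, Hspa1a and Hspa1b stood out, with Hspa1b in 57.8% of nuclei with Hspa1a and in 9.26% of the others (log2 ratio 2.64). In sham and denervated BAs that pair gave 63.0% against 13.1% and 48.3% against 12.8%. Because these genes share sequence, the part of reads that fit both genes in this pair was not tested. Dnajb1 and Dnaja4 formed the closest pair in sham BAs, with Dnaja4 in 14.3% of nuclei with Dnajb1 and in 1.83% of the others (log2 ratio 2.97), although only 126 sham BAs had Dnaja4 at all. Hspa8 was the loosest member. Nuclei with and without it differed in the detection of the other 7 members by log2 ratios of 0.40 to 0.88 in untreated BAs and 0.10 to 0.54 in denervated BAs, but 1.05 to 1.96 in sham BAs. Every pair had a positive log2 ratio in each library, the smallest being 0.33, 0.98 and 0.08 in untreated, sham and denervated BAs.

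**Figure D5:**
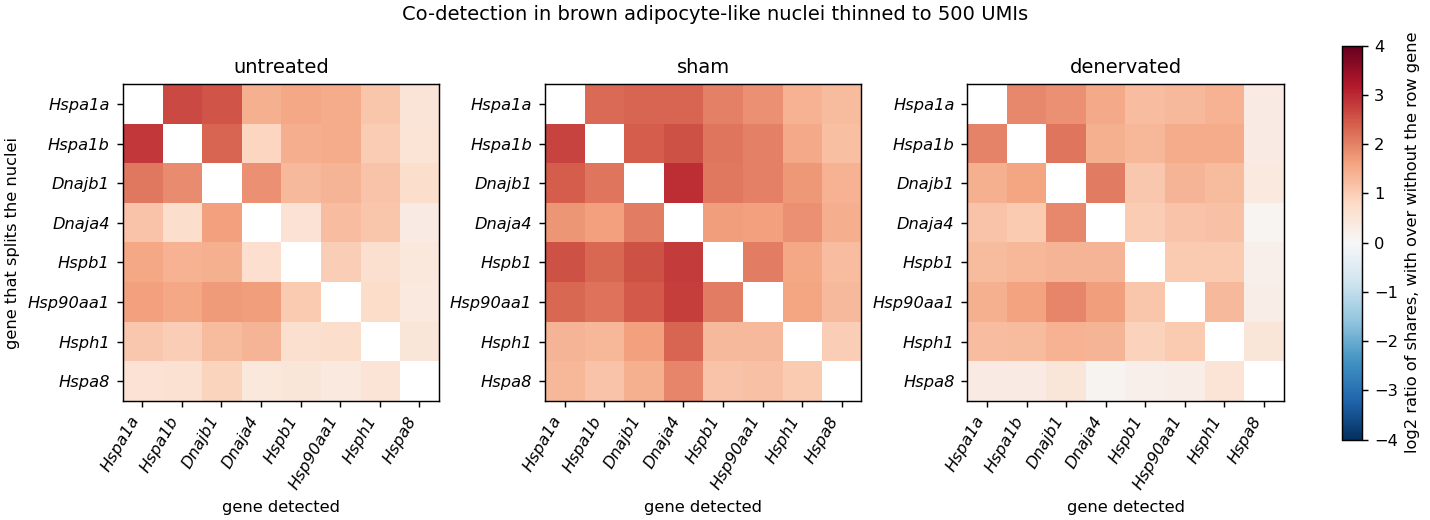
Co-detection of the 8 genes in BAs thinned to 500 UMIs, by library. Each cell is the log2 ratio of the share of nuclei with the column gene among nuclei with the row gene over that among nuclei without it. The Hspa8 row and column are palest in the untreated and denervated panels, whereas no sham ratio is below 0.98.

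In untreated BAs, the genes whose pattern was most like that of the members included 3 of the immediate early list among the leading 10. BAs with at least 3 members were compared with BAs with none, both at 500 UMIs, for each gene found in at least 5% of nuclei. A log2 ratio of shares of 1 or more was reached by 0.735% of 2040 genes in the untreated, 1.83% of 2020 in the sham and 1.23% of 2040 in the denervated library. The 10 genes with the largest ratio in untreated BAs were Cyr61 (2.30), Plxdc2 (2.12), Jun (1.78), Hspe1 (1.77), Jund (1.53), Ifrd1 (1.51), H3f3a (1.40), Tex14 (1.37), Ptp4a1 (1.34) and Stat3 (1.23). Cyr61, Jun and Jund belong to the immediate early list, and Hspe1 encodes the mitochondrial Hsp10. Cyr61 was found in 23.5% of untreated BAs with 3 or more members and in 4.75% of BAs with none. In the sham library Cyr61 was at 32.0% against 1.92%, Jun at 56.3% against 6.17% and Jund at 35.2% against 3.84%. Also of the immediate early list, Fosb, Fos, Egr1 and Nr4a1 had log2 ratios of 4.60, 4.12, 3.83 and 3.72 in sham BAs. Junb was at 2.62 and Zfp36 at 2.41 there. In the denervated library Cyr61 was at 37.0% against 7.22%, Jun at 33.8% against 10.8% and Jund at 28.7% against 15.2%. Tex14 did not keep its ratio in sham BAs, at 14.5% against 13.5% (log2 ratio 0.10), and Ptp4a1 was at 0.84 there. In denervated BAs Jund (0.92), Ifrd1 (0.93) and Tex14 (0.84) were also below 1. Any gene of the immediate early list was present in 74.5% of untreated BAs with 3 or more members and 39.2% of those with none, in 90.5% against 24.5% in the sham library and in 81.5% against 44.3% in the denervated library.

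BAs with at least 3 members were shallower before thinning. They held markers of other cell types at shares whose intervals overlapped those of BAs with none, although Slc7a10 was higher in the sham and denervated libraries. Their original median depth was 1213 UMIs against 1942.5 for BAs with no member in the untreated library, 1150 against 1518 in the sham and 710 against 1136 in the denervated library. Any of 13 endothelial markers was found in 18.6% against 17.7%, 21.8% against 18.1% and 12.8% against 13.7% of these nuclei. Slc7a10, the defining white adipocyte gene, was rare in both groups, at 0.18% against 0.11% in the untreated library. In the sham library it was higher with at least 3 members, at 1.69% (0.85 to 3.01) against 0.41% (0.15 to 0.89). The denervated shares were 1.53% (0.77 to 2.72) against 0.52% (0.24 to 0.98), and both pairs of intervals overlapped only slightly. Slc7a10 was at 50.2 CPM in the high sham sub-cluster of 693 BAs, and at 10.4 and 18.4 CPM in those of 1795 and 895. A further 64 sham BAs stood at 73.2 CPM. A relation of these nuclei to WAs was not tested. Doublets and white adipocyte-like sub-clusters had been set apart by such markers, which limits these shares and levels in advance. Ucp1, which defines thermogenic BAs, was found in 9.11% (6.84 to 11.8) against 13.5% (11.9 to 15.1) in the untreated library, 15.1% against 16.0% in the sham and 5.29% (3.77 to 7.18) against 14.5% (12.9 to 16.3) in the denervated library. Cidea, a lipid droplet gene of BAs, was not lower throughout, at 52.1% (47.8 to 56.3) against 44.9% (42.6 to 47.2) in the untreated, 35.5% (31.9 to 39.4) against 48.0% (45.4 to 50.6) in the sham and 48.1% (44.4 to 51.8) against 53.3% (50.9 to 55.7) in the denervated library. The same nuclei with at least 3 members had a mean of 17.1, 31.6 and 9.65 mitochondrial UMIs of 500, beside 16.4, 32.1 and 8.73 in those with none. The part of depth in these differences was not tested.

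Few of the other chaperone genes passed a log2 ratio of 1 between libraries in BAs. Of 65 other heat shock and chaperone genes, 40 had 50 CPM or more in untreated or denervated BAs, and 0 passed a log2 ratio of 1 in either direction between those libraries, beside 1.17% of all genes higher and 0.464% lower. Between sham and untreated BAs, 2 of 40 were higher and 1 lower, beside 7.38% and 7.11% of all genes. Ubb, a polyubiquitin gene induced by heat shock, was at 378 CPM in sham and 92.1 CPM in untreated BAs (2.04, 1.92 to 2.16), Sugt1 was at 1.08 and the small heat shock protein gene Hspb8 at -1.16. Between denervated and sham BAs, Ubb (-2.09) and the J-domain gene Dnaja1 (-1.10) were lower and none of 39 was higher, beside 7.48% and 7.64% of all genes. In ECs, 0 of 40 passed for denervated over untreated, beside 4.68% of all genes higher and 1.38% lower. Ubb alone passed for sham over untreated (1.25), beside 1.87% and 2.56% of all genes. For denervated over sham, 8 of 39 were higher, among them the mitochondrial chaperone genes Hspa9 (1.58) and Hspd1 (1.25) and the endoplasmic reticulum chaperone gene Hspa5 (1.13), and Ubb was lower (-1.10), beside 13.1% of all genes higher and 6.3% lower. The list's median was 0.52 in that comparison beside 0.10 over all genes. The members did not share this direction, with a median of -0.45.

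Some of the other chaperone genes were also higher in WAs than in BAs. Between untreated WAs and BAs, 9 of 43 other chaperone genes were higher and 9 lower, and in the sham and denervated libraries 10 of 40 and 15 of 40 were higher and 2 and 1 lower. Over all genes tested, 12.1%, 9.52% and 13.2% were higher and 14.3%, 13.7% and 18.9% lower in the 3 libraries. Ubb, Bag3 and Dnaja1, which heat shock also induces, were above BAs in the 3 libraries. Bag3, a co-chaperone that binds Hsp70, stood at 476, 1285 and 1252 CPM in WAs and at 204, 275 and 256 CPM in BAs. Dnaja1 stood at 395, 1161 and 566 CPM in WAs and 186, 271 and 127 CPM in BAs. The lower genes in untreated WAs included Hspa9 (-1.50) and the chaperonin subunits Cct3, Cct5 and Cct8 (-1.19 to -1.92), each with few UMIs in that class.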

How the data were processed

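The authors deposited 1 table of UMI counts per library, with barcodes in rows and genes in columns. Per the file headers of the untreated and denervated tables, the counts came from the BD WTA Rhapsody Analysis Pipeline 1.9 with GRCm38 and GENCODE vM19. The sham table had no header. These counts precede the authors' removal of debris, ambient RNA and doublets, and their own clusters were not used here. The notes in the labels name GRCh38, which is a human build. Gene positions are from GENCODE vM21 and promoters from RefSeq, both on GRCm38.

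A barcode was kept if it had 200 or more detected genes and no more than 50% of its UMIs were mitochondrial. A nucleus was taken for a doublet, and removed, where 2 exclusive marker lists each had 3 or more UMIs and the lesser had at least 25% of the UMIs of the greater. This took 835, 1739 and 754 nuclei. Each library was clustered on its own (2000 variable genes without the members and other chaperone genes, 30 principal components, 20 neighbours, resolution 0.5), and adipocytes were clustered again at resolution 1. Clusters were named from fixed marker lists. Clusters rich in adipocyte markers were pooled before the second clustering. Groups stayed unnamed where the marker list of another lineage was above 33.3% of its level in the cluster highest for that list. The naming rules, including these, were set after clusters and some alternatives were seen. UMIs were summed per class and scaled to a total of 1000000 (CPM) with exact Poisson intervals, shares with exact binomial intervals, and log2 ratios with exact conditional binomial intervals, all at 95% and for counting error only. Shares of nuclei used nuclei thinned to 500 UMIs. Counts of genes past a log2 ratio of 1 used genes with at least 50 CPM on either side, with 0.5 UMI added to each count. The promoter search was limited to 250 bases.

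The members and the lists were chosen with earlier results of these data known. The text names the 8 members, the other chaperone genes past a log2 ratio of 1, and the 10 genes whose shares differ most between untreated BAs with at least 3 members and with none. Further immediate early genes are named for sham BAs. WA comparisons, sub-clusters and UMI ranges were added after values were seen. The steps ran in Python 3.11.15 with numpy 2.4.6, scipy 1.17.1, scikit-learn 1.9.0 and python-igraph 0.11.9, and the ratio step was tested on simulated data. Alternatives changed the gene minimum, the mitochondrial limit, doublet removal, resolution, the genes used for clustering, the denominator, depth and ambient RNA.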

Additional observations from a re-analysis of the deposited data

Results flagged for a closer look

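Barcodes with fewer than 200 detected genes enter no comparison above, yet they held chaperone transcripts in each library. The 8 genes summed to 4418 CPM (4235 to 4607) in 1871 such untreated barcodes, to 3631 CPM (3446 to 3823) in 988 sham barcodes and to 7132 CPM (6956 to 7312) in 5358 denervated barcodes. The kept nuclei held 3347, 7518 and 4791 CPM, so the low barcodes were above the kept nuclei in the untreated and denervated libraries and below them in the sham library.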

How the results depend on the processing

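Over 18 results and 150 alternative values, 125 of 129 log2 ratios kept their direction, 68 values moved by less than their interval, 78 moved by more and 4 reversed. This tally took 1 UMI range per comparison. Signs also turned in other ranges given above, for denervated over untreated BAs and for untreated BA over EC. Values are log2 ratios of the 8 genes unless said otherwise. The reversals were in denervated over untreated BAs, at -0.086 with at least 500 detected genes and -1.13 in BAs of 1000 to below 2000 UMIs, and in BA over EC with both classes at 500 to below 1000 UMIs, at 0.96 in the untreated and 0.44 in the sham library. With that limit the denervated BA over EC was -0.067 and WA over BA was 1.61 in the sham and 1.26 in the denervated library. Untreated WAs had too few nuclei there.
With at least 500 genes, the ratios were -0.29 and -0.88 (BA over EC, untreated and sham), 0.55 and -0.64 (BA, sham over untreated and denervated over sham), 0.46, 1.13 and -0.67 (EC, denervated over untreated, sham over untreated, denervated over sham) and 1.53, 2.33 and 2.24 (WA over BA, untreated, sham, denervated), and the share of BAs with at least 3 members was 18.1% in the sham and 12.9% in the denervated library. No denervated nucleus was then pericyte-like.
With at most 10% mitochondrial UMIs they were -0.31 and -0.86 (BA over EC, untreated and sham), 0.74, 1.28 and -0.54 (EC, same order as above) and 2.30 (WA over BA, sham).
With doublets kept they were -0.60 and -0.78 (BA over EC, sham and denervated), 0.82 and -0.60 (BA, sham over untreated and denervated over sham), 0.47 and -0.41 (EC, denervated over untreated and over sham) and 2.16 (WA over BA, sham), and the sham share was 22.3%.
Resolution 1 gave 1.87 (WA over BA, denervated) and 2.54 for the Dnajb1 co-detection ratio in sham BAs. Clustering with the chaperones gave -0.75 (BA over EC, sham), 0.66 and -0.43 (BA, sham over untreated and denervated over sham) and 2.31 (WA over BA, sham).
With CPM taken over UMIs that are not mitochondrial, they were -0.62, -0.82 and -0.92 (BA over EC, untreated, sham, denervated), 0.75 and -0.55 (BA, sham over untreated and denervated over sham) and 0.95 and -0.44 (EC, sham over untreated and denervated over sham).
Thinned to 500 UMIs they were -0.20, -0.50 and -0.48 (BA over EC), 0.16 and 0.62 (BA, denervated and sham over untreated), 0.44, 0.92 and -0.48 (EC) and 1.51, 2.21 and 1.70 (WA over BA).
With ambient RNA subtracted they were 0.78 and -0.55 (BA, sham over untreated and denervated over sham) and 1.74, 2.35 and 1.98 (WA over BA). The estimated ambient share was 2.46% to 7.68% in BAs, 41.7% in untreated ECs, and 92.0% and 72.5% in sham and denervated ECs, for which no subtracted value was taken.
In 1 UMI range they were 0.087 and -1.22 (BA, sham over untreated and denervated over sham, 1000 to below 2000 UMIs) and 0.45 and -0.46 (EC, denervated over untreated and over sham, 500 to below 1000 UMIs).
Without the untreated EC cluster led by immediate early genes they were -0.31 (BA over EC), 0.76 and 1.11 (EC, denervated and sham over untreated). With the mixed denervated cluster counted as ECs they were -0.70 (BA over EC), 0.40 and -0.49 (EC, denervated over untreated and over sham).
Thinned to 300 UMIs, the share of BAs with at least 3 members was 7.53%, 16.0% and 11.2% in the untreated, sham and denervated libraries, and at 1000 UMIs 21.4%, 23.1% and 12.2%. The Dnajb1 ratio was 1.98 in denervated BAs at 300 UMIs and 1.55, 2.38 and 1.79 in the 3 libraries at 1000 UMIs. The causes of these changes were not tested. UMI ranges, cluster changes and WA results were chosen after seeing the data. No paired analysis was possible because each condition had 1 library. The few UMIs per nucleus limit shares, and Dnaja4 most of all.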
